A study of Homo sapiens with 12 samples.

Results

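The human embryonal carcinoma lines NTera-2 and 2102Ep were compared with each other in cells that had received only a non-targeting siRNA. All 3 NTera-2 control arrays and all 3 2102Ep control arrays of a series of 12 arrays were taken, and each gene with a probe set of its own was followed across them. RNA was hybridised to Human Gene 1.0 ST arrays from Affymetrix, which carry 1 sample each and whose probes are spread along the transcripts. Both groups were given the Ambion Silencer Select Negative Control #1 siRNA for 6 hours, after seeding 24 hours earlier, and were then cultured for 72 hours in serum-containing medium. The 2102Ep cells were at passage 35 to 50 and the NTera-2 cells at passage 40 to 50. The lipid was Lipofectamine 2000 for 2102Ep and Lipofectamine RNAiMAX for NTera-2, and the dose of siRNA was not the same either, so the effect of the line cannot be told apart from that of the transfection. Each kind of cell is represented by 1 line, and the replicates, which the labels call biological, are samples of that line. The remaining 6 arrays, of the same lines after an siRNA against SOX2 (siSOX2), served as a second measurement of the line difference.

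Embryonal carcinoma cells are the stem cells of teratocarcinomas, germ cell tumours of the testis and ovary, and share a core set of transcription factors with embryonic stem cells. NTera-2 is called pluripotent because retinoic acid turns it into neurons and other cell types. In contrast, 2102Ep is called nullipotent because it resists that treatment. Pluripotent cells are known in a naive state, like the inner cell mass of the blastocyst, and in a primed state, like the later epiblast, and the states are marked by different genes. Embryonal carcinoma cells also keep genes of the germ line from which their tumours arise.

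Array medians lay between 7.433 and 7.583 on the log2 scale of the deposited signals. Arrays of the same line correlated at 0.9825 to 0.9943 across probe sets and arrays of different lines at 0.9587 to 0.9715. A gene was called where limma's Benjamini-Hochberg adjusted p was 0.05 or less and the lines differed by 2-fold or more (a log2 difference of 1). Of 18401 genes 1429 were called, or 7.77%. These were 826 genes (4.49%) higher in NTera-2 and 603 genes (3.28%) higher in 2102Ep. The control arrays of the lines did not overlap for 1428 of the called genes, against 9288, or 50.5%, of all genes. The median difference of all genes, NTera-2 minus 2102Ep, was -0.064. The largest differences lay more often on the side of 2102Ep. At 8-fold or more there were 19 genes higher in NTera-2 and 37 higher in 2102Ep, and at 16-fold or more there were 4 and 15.

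**Figure D1:**
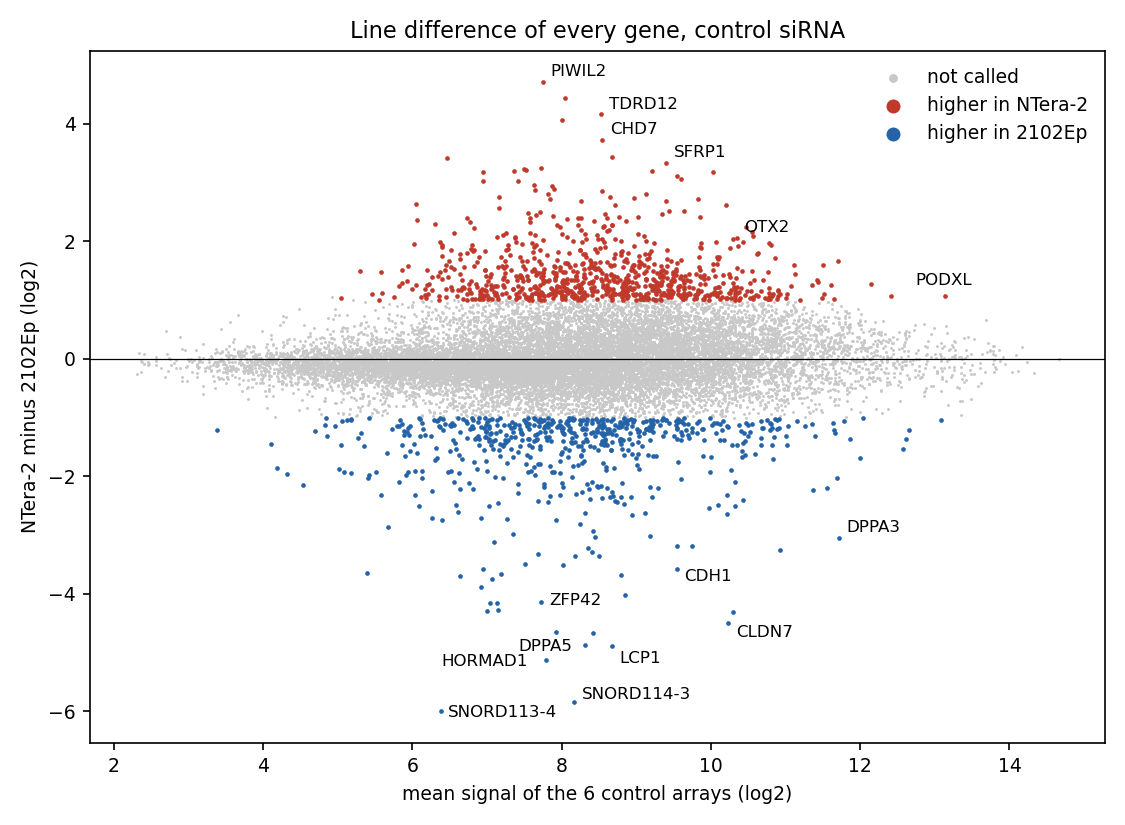
Difference between the lines (NTera-2 minus 2102Ep, log2) against the mean log2 signal of the 6 control arrays, 1 point per gene, with called genes in colour and Y-linked genes not drawn. The 826 genes higher in NTera-2 reached 4.71 for PIWIL2, while the 603 genes higher in 2102Ep reached -6.0 for SNORD113-4.

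The identity of both lines was checked first against 19 measured markers of embryonal carcinoma. SOX2, the transcription factor that the study later silenced, had log2 signals of 12.28, 12.21 and 12.20 in the 2102Ep controls and 12.51, 12.52 and 12.63 in the NTera-2 controls. The signal was high in every array and the difference of 0.33 was under 2-fold. LIN28A, an RNA-binding protein that blocks let-7 maturation, differed by -0.21 with overlapping arrays. SALL4, another factor of the core network, differed by 0.38, the RNA-binding protein L1TD1 by 0.02, the DNA methyltransferase DNMT3B by -0.20 and TNFRSF8, the CD30 antigen used to diagnose this tumour, by 0.50. None of these differences reached 2-fold. Among other markers that were not called, CRIPTO, GAL, GDF3, LIN28B and TERF1 had a lower mean in NTera-2 and DPPA4 a higher one. POU5F1 and NANOG were covered only by probe sets that the annotation ties to several genes and are not reported. Of the 19 markers 1 was higher in NTera-2 and 4 were higher in 2102Ep (26.3% called, against 7.77% of all genes). A lower mean in NTera-2 was found for 12, and without a fold threshold 4 were higher in NTera-2 and 7 in 2102Ep. The list median was -0.209, which was -0.314 without NTera-2 control replicate 2 and -0.139 without NTera-2 control replicate 3. Podocalyxin (PODXL), the protein that carries the TRA-1-60 antigen, was the one marker higher in NTera-2, at 13.61, 13.70 and 13.69 against 12.85, 12.36 and 12.60 in 2102Ep. That difference of 1.06 (adjusted p = 5.29e-06) was 0.94 without 2102Ep control replicate 2. The markers higher in 2102Ep were E-cadherin (CDH1, -3.58), DPPA2 (-2.42), tissue-nonspecific alkaline phosphatase (ALPL, -1.47) and the epithelial cell adhesion molecule EPCAM (-1.37). Among 18 leukocyte markers the only call was CD3D (-1.63), with PTPRC at -0.20, and among 13 fibroblast markers it was COL1A2 (-1.49), with COL3A1 at -0.06. The shares called, 5.56% and 7.69%, did not exceed the 7.77% of all genes.

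The genes of the naive state were higher in 2102Ep. All 22 measured members had a lower mean in NTera-2, and the list median was -1.37 against -0.064 for all genes. Of these, 13 were called (59.1% against 7.77% of all genes), and 20 were called without a fold threshold. DPPA5, a KH-domain protein of the early embryo and germ cells, had signals of 10.60, 11.27 and 10.39 in 2102Ep and 6.04, 5.78 and 5.83 in NTera-2. The arrays of the lines lay far apart, and the difference of -4.87 (SE 0.164, adjusted p = 9.44e-13) is 29.2-fold. ZFP42, the zinc finger protein known as REX1 and a classic marker of undifferentiated cells, read 9.83, 9.95 and 9.62 in 2102Ep and 5.48, 5.94 and 5.56 in NTera-2. Its difference was -4.14 (SE 0.132, adjusted p = 5.04e-13). DPPA3, or STELLA, which protects the maternal genome from demethylation after fertilisation, was bright in 2102Ep at 13.37, 13.54 and 12.81, against 9.65, 10.83 and 10.09 in NTera-2. NTera-2 control replicate 2 was the highest of its group but still below every 2102Ep array, and the difference was -3.04 (SE 0.228). DNMT3L, the cofactor of the de novo DNA methyltransferases, was nearly the same in every 2102Ep array (9.96, 9.93 and 9.98) and lower in NTera-2 (7.01, 6.77 and 6.995). TFCP2L1, a transcription factor that can hold embryonic stem cells in the naive state, differed by -2.35 (adjusted p = 1.93e-09). The carnitine palmitoyltransferase CPT1A (-2.47), the surface protein SUSD2 (-1.65), the maternal factor KHDC3L (-1.47), the alkaline phosphatases ALPG (-1.64) and ALPP (-1.26, but -0.674 as the mean of its probe sets), TRIM60 (-1.77) and the T-box factor TBX3 (-1.25) were also higher in 2102Ep. HORMAD1, a protein of the meiotic chromosome axis that was in the same list, showed the largest difference among them, with 10.29, 10.51 and 10.26 in 2102Ep and 5.12, 5.49 and 5.09 in NTera-2. The Krüppel-like factors KLF4 (-0.97, but -1.001 and called without 2102Ep control replicate 1), KLF5 (-0.82) and KLF17 (-0.42) and the nuclear receptor ESRRB (-0.58) fell short of 2-fold. Each of them had an adjusted p of 0.0068 or less by limma. KLF2 (-0.22) had an adjusted p of 0.152 by limma.

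For the genes of the primed state the direction was the opposite one. Of 27 measured genes 12 were higher in NTera-2 and 0 were higher in 2102Ep (44.4% called, against 7.77% of all genes), with a list median of 0.90. OTX2, a homeodomain factor of the epiblast and forebrain, read 9.32, 9.45 and 9.19 in 2102Ep and 11.27, 11.38 and 11.49 in NTera-2. The lowest NTera-2 array lay well above the highest 2102Ep array, and the difference was 2.06 (SE 0.111, adjusted p = 2.34e-10). ZIC2, a zinc finger factor of the epiblast and neural plate, read 9.80, 9.58 and 10.15 in 2102Ep and 11.64, 11.92 and 11.76 in NTera-2, a difference of 1.93. Versican (VCAN, 2.42), the receptor phosphatase PTPRZ1 (2.15), the ERK phosphatase DUSP6 (2.20), stanniocalcin (STC1, 1.86), the giant cadherin FAT3 (1.79), the deubiquitinase USP44 (1.77), the Wnt receptor FZD2 (1.58) and N-cadherin (CDH2, 1.36) were higher as well. SFRP2, a secreted Wnt inhibitor, read 12.09, 12.45 and 12.36 in NTera-2, against 10.77, 10.70 and 10.65 in 2102Ep, bright in both lines and higher in every NTera-2 array. FGF2, the growth factor that sustains primed cells in culture, did not differ by 2-fold (-0.31), nor did DNMT3B or SALL2 (0.49). Outside both lists, the orphan receptor NR5A2, which binds the POU5F1 promoter, was at 10.46, 10.26 and 10.08 in 2102Ep and 7.91, 8.43 and 7.93 in NTera-2.

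**Figure D2:**
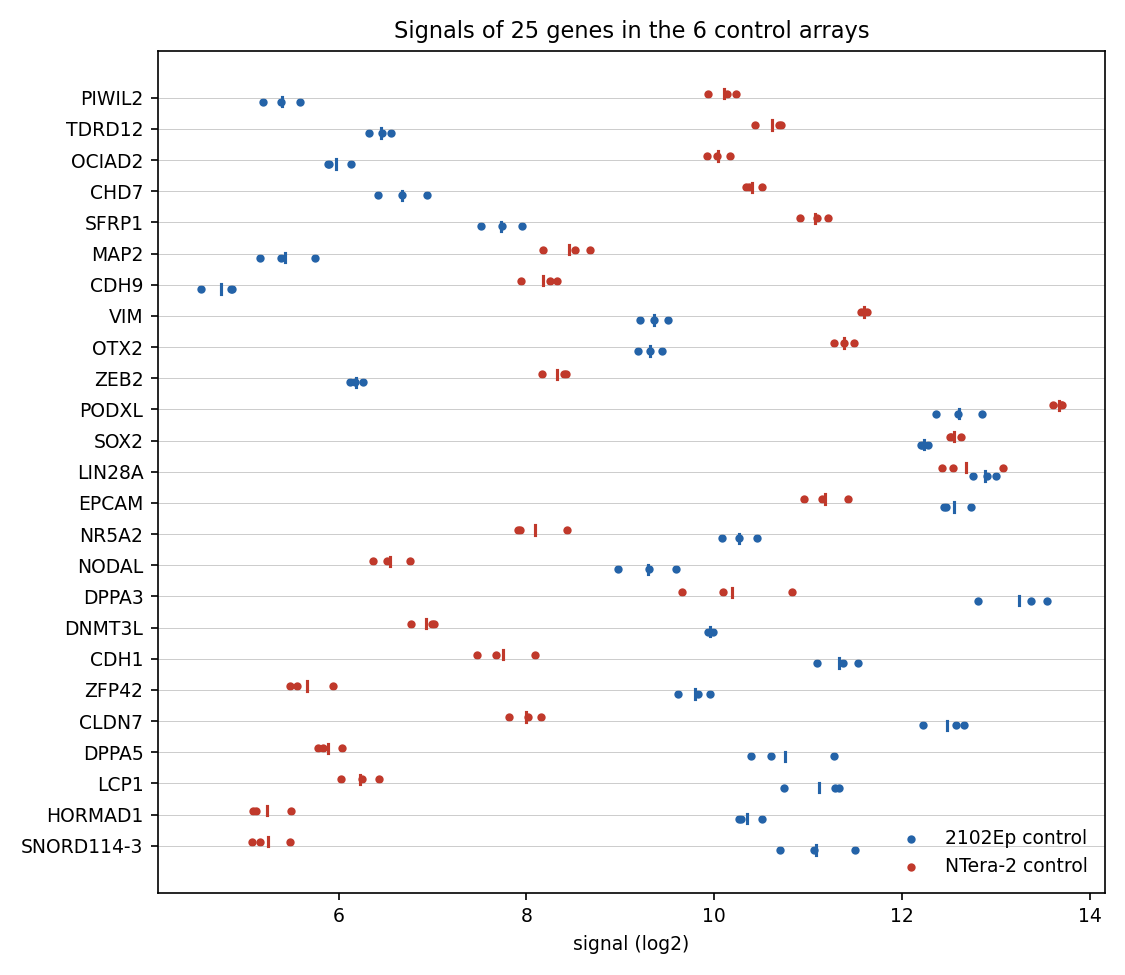
Log2 signals of 25 genes in the 3 NTera-2 control arrays (red) and the 3 2102Ep control arrays (blue), with a bar at each group mean. SOX2 differed by 0.33 between the lines, and every gene drawn except SOX2 and LIN28A was called.

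Germ cell genes included large differences in both directions, and the list as a whole leaned to 2102Ep. Of 38 measured genes 4 were higher in NTera-2 and 9 were higher in 2102Ep (34.2% called, against 7.77% of all genes). A lower mean in NTera-2 was found for 27, and the median was -0.219. Without a fold threshold the calls were 6 and 16, and at 2-fold the 9 became 6 without replicate 2 of either line. PIWIL2, an Argonaute protein that binds piRNAs, showed the largest difference of all genes higher in NTera-2. Its signals were 9.94, 10.23 and 10.14 in NTera-2 and 5.39, 5.20 and 5.59 in 2102Ep, a difference of 4.71 (SE 0.114, adjusted p = 2.05e-14) or 26.1-fold. TDRD12, a Tudor-domain helicase of the same pathway, was likewise high in NTera-2 (10.43, 10.71 and 10.69) and low in 2102Ep (6.56, 6.33 and 6.47). The recombinase DMC1 (1.66) and the stem cell factor receptor KIT (1.23) were also higher in NTera-2. By contrast, GTSF1, a small zinc finger protein that serves PIWI proteins in silencing, read 10.89, 11.18 and 10.19 in 2102Ep and 5.78, 6.10 and 6.36 in NTera-2, and the difference was -4.67 (SE 0.196). Of the other piRNA genes, TDRD1 (-1.01) and MAEL (-1.0) were called at 2-fold in favour of 2102Ep, though at -0.942 and -0.756 without 2102Ep control replicate 2, at -0.935 and -0.966 without NTera-2 control replicate 2, and, for TDRD1, at -0.986 without 2102Ep control replicate 1, while PIWIL1 (0.22), PIWIL4 (0.05), TDRD9 (-0.33) and MOV10L1 (-0.35) were not called. The germ cell specifiers PRDM1 (-1.28) and TFAP2C (-1.10) were higher in 2102Ep, and DDX4 (-0.22), DAZL (0.33) and SOX17 (-0.06) were not called. Of 58 cancer-testis antigens 4 were called, all higher in 2102Ep, and this 6.9% is close to the 7.77% of all genes. BRDT, a bromodomain protein of spermatocytes, stood at -2.75 and MAGEB2 at -2.31.

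Epithelial genes were higher in 2102Ep. The list held 51 measured genes, of which 18 were higher in 2102Ep, 0 were higher in NTera-2 and 42 had a lower mean in NTera-2, with a median of -0.606. Called genes made up 35.3% of it, against 7.77% of all genes. Claudin 7 (CLDN7), a tight junction protein, gave 12.66, 12.57 and 12.22 in 2102Ep and 8.15, 7.81 and 8.01 in NTera-2. That is a difference of -4.49 (SE 0.135, adjusted p = 2.7e-13), or 22.5-fold. E-cadherin, which joins epithelial cells at adherens junctions, read 11.53, 11.09 and 11.37 in 2102Ep and 7.48, 8.09 and 7.68 in NTera-2 with no overlap, a difference of -3.58. P-cadherin (CDH3, -2.64), the sorting adaptor subunit AP1M2 (-2.43), the protease inhibitors SPINT2 (-2.35) and SPINT1 (-1.39), the membrane protease matriptase (ST14, -2.19), keratin 19 (KRT19, -1.75) and desmoplakin (DSP, -1.46) went with them. So did regulators of the epithelial state, namely the splicing factor ESRP2 (-1.46), the grainyhead factors GRHL3 (-1.41) and GRHL2 (-1.17) and the zinc finger factor OVOL1 (-1.38). The keratins of simple epithelia, KRT8 (0.06) and KRT18 (-0.03), had overlapping arrays, and the junction scaffold TJP1 (0.02), desmoglein 2 (DSG2, 0.09) and claudin 6 (CLDN6, 0.09) did not reach 2-fold.

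Mesenchymal genes showed the reverse, but over a smaller part of the list. Of 49 measured genes 13 were higher in NTera-2 and 0 were higher in 2102Ep (26.5% called, against 7.77% of all genes). A lower mean in NTera-2 was found for 21 of those not called, and the median was 0.262, or 0.133 without 2102Ep control replicate 2. Both ZEB factors, repressors of E-cadherin transcription, were higher in NTera-2. ZEB1 read 6.25, 6.48 and 6.44 in 2102Ep and 8.04, 8.62 and 8.48 in NTera-2, a difference of 1.99 (adjusted p = 2.19e-08). ZEB2 differed by 2.15 on the probe set used (adjusted p = 8.72e-11) and by 0.525 on its other probe set. Vimentin (VIM), the intermediate filament of mesenchymal cells, read 9.51, 9.36 and 9.21 in 2102Ep and 11.63, 11.56 and 11.59 in NTera-2. Cadherin 6 (CDH6, 2.44), cadherin 11 (CDH11, 2.27), the secreted ligand WNT5A (2.07), fibronectin (FN1, 1.99), the zinc finger repressor SNAI2 (1.66), tenascin C (TNC, 1.52), integrin alpha 5 (ITGA5, 1.17) and the semaphorin co-receptor NRP1 (1.11) were higher too, NRP1 falling under 2-fold without 2102Ep control replicate 1 (0.974) or NTera-2 control replicate 2 (0.983). The values of SNAI1 (-0.18), TWIST1 (-0.37), CD44 (-0.08), SPARC (-0.09), transgelin (TAGLN, -0.74) and smooth muscle actin (ACTA2, -0.79) were under 2-fold either way. In the median of the whole list, the control arrays stood at 8.55, 8.396 and 8.355 in 2102Ep and at 8.502, 8.616 and 8.513 in NTera-2 and thus overlapped.

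Within the classical cadherins, the calcium-dependent adhesion proteins of adherens junctions, 3 of 21 measured genes were higher in 2102Ep and 5 were higher in NTera-2. These calls were 38.1% of the list, against 7.77% of all genes. Next to CDH1 and CDH3, the endothelial cadherin CDH5 differed by -1.25. On the side of NTera-2, CDH2, CDH6 and CDH11 were joined by CDH10 (1.08) and by CDH9, a neuronal cadherin that read 4.86, 4.85 and 4.54 in 2102Ep and 7.94, 8.25 and 8.33 in NTera-2. Protocadherins, by contrast, were called in 1 direction. Of 42 measured genes 10 were higher in 2102Ep and 0 in NTera-2 (23.8% called, against 7.77% of all genes), with a median of -0.35. They included PCDH18 (-2.98) and PCDH10 (-1.92), and another 8 belonged to the clustered families on chromosome 5. The 10 became 7 without 2102Ep control replicate 1, 12 without 2102Ep control replicate 3 and 8 after repeated quantile normalisation. Without the genes below the median signal only 7 protocadherins were left to test, of which 1 was called. The clustered genes are close copies, so their probe sets may share signal, and PCDHA2 differed by -2.86 on the probe set used and by -0.856 on its other one.

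**Figure D3:**
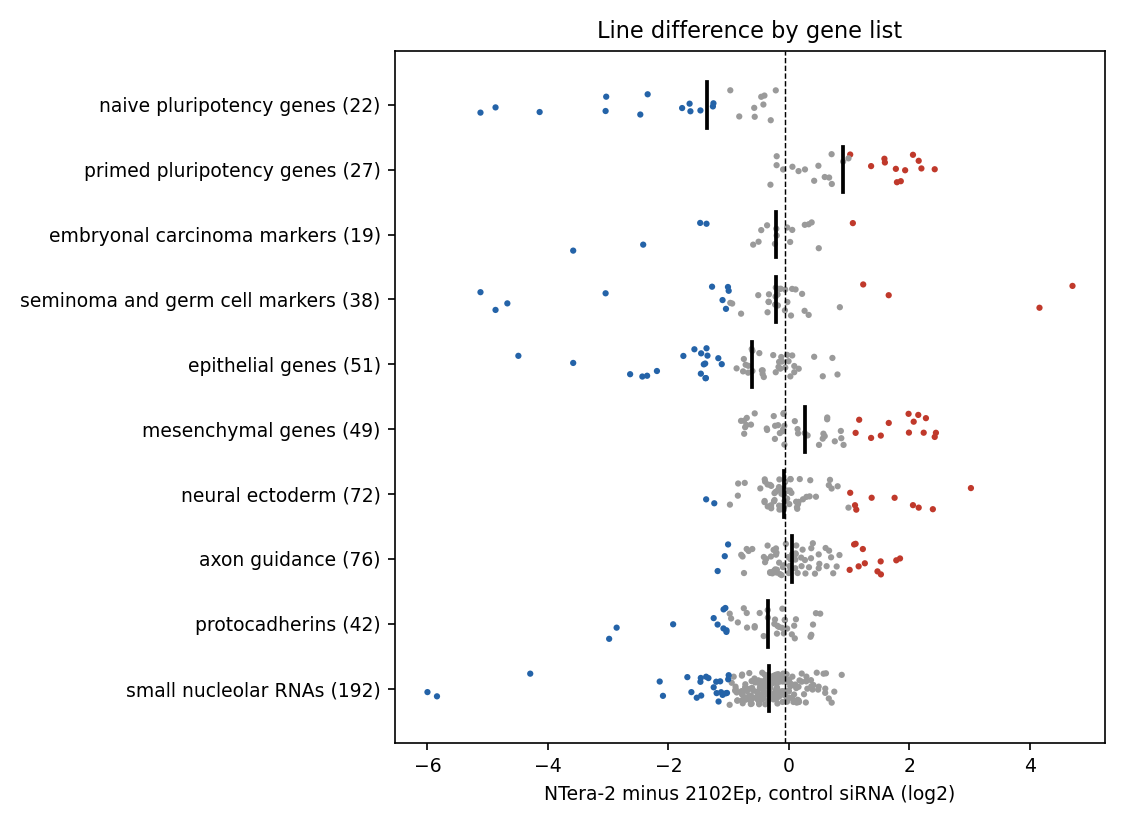
Difference between the lines (NTera-2 minus 2102Ep, log2) of every measured member of 10 gene lists, with called genes in colour, the list median as a black bar and the median of all genes, -0.064, as a dashed line. The number of members stands beside each name. Called members lay on 1 side in the naive, primed, epithelial and mesenchymal lists, the protocadherins and, with all 6 control arrays, the small nucleolar RNAs.

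All measured microRNA precursors were examined, not only those of microRNAs that act on the epithelial and mesenchymal programmes. The array detects the precursor or its host transcript and not the mature microRNA. Of 173 precursors measured 5 were called, or 2.89% against 7.77% of all genes, and the mature sequences of all 5 were found in RefSeq (GRCh38.p14). The best known arm of each is printed here because the seed, bases 2 to 8, in capitals, largely decides which messengers a microRNA can bind.
hsa-miR-200c-3p: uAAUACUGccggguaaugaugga
hsa-miR-31-5p: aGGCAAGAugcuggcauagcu
hsa-miR-19b-3p: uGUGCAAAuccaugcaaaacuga
hsa-miR-181a-5p: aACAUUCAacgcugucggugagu
hsa-miR-181b-5p: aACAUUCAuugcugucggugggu
In that assembly hsa-miR-200c-3p lies at chr12:6963742-6963764 on the plus strand and hsa-miR-31-5p at chr9:21512158-21512178 on the minus strand. The precursors of the first 3 were higher in 2102Ep. MIR200C, whose microRNA is known to repress ZEB1 and ZEB2, read 7.48, 6.98 and 7.41 in 2102Ep and 5.86, 5.75 and 5.96 in NTera-2. Its difference was -1.44 (SE 0.15, adjusted p = 7.11e-07), and those of ZEB1 and ZEB2 were of the other sign. Whether MIR200C has a part in the ZEB signals was not tested. Its neighbour MIR141 differed by -0.89 (adjusted p = 8.47e-06), which is under 2-fold, and its mature form hsa-miR-141-3p (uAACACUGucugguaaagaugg) has a seed that is not identical. MIR31, on chromosome 9, differed by -1.66 (SE 0.184) and its host transcript MIR31HG by -2.51 (adjusted p = 5.7e-09). MIR19B2, a member of a cluster on chromosome X related to the oncogenic miR-17-92 cluster, differed by -1.36, with 2102Ep control replicate 2 the highest array (7.42, 8.35 and 7.36 in 2102Ep and 6.08, 6.83 and 6.14 in NTera-2). The remaining pair, MIR181A2 and MIR181B2, share 1 transcript on chromosome 9 and the seed ACAUUCA, and were higher in NTera-2 by 1.34 and 1.10. Their arrays spread widely, at 8.08, 6.22 and 7.68 in NTera-2 and 6.12, 5.69 and 6.17 in 2102Ep for MIR181A2. MIR181B2 was the only called gene whose arrays overlapped between the lines. Without NTera-2 control replicate 1 the differences were 0.959 and 0.759, and without 2102Ep control replicate 2 that of MIR181B2 was 0.848. With an intensity trend and a robust prior in limma MIR181A2 was not called.

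The largest differences of all came from small nucleolar RNAs of an imprinted locus on chromosome 14, which lies between the paternally expressed genes DLK1 and DIO3. Its maternal copy gives rise to the long RNA MEG3 and to long arrays of box C/D small nucleolar RNAs and microRNAs. Of 27 genes measured there, all 6 of the SNORD113 and SNORD114 families were higher in 2102Ep. SNORD113-4 had signals of 9.10, 10.49 and 8.54 in 2102Ep and 3.04, 3.54 and 3.55 in NTera-2. That is a difference of -6.0 (SE 0.33, adjusted p = 2.9e-10), and SNORD114-3 followed with 10.70, 11.50 and 11.06 in 2102Ep and 5.08, 5.49 and 5.16 in NTera-2. SNORD114-26 differed by -4.29 and the other 3 by -2.15 to -1.21. SNORD114-2 had means under the 10th percentile of gene signal in both lines. So did SNORD114-6, the last of these, with means of only 3.989 in 2102Ep and 2.783 in NTera-2. SNORD114-6 was not called without 2102Ep control replicate 2 (-1.21 with it and -0.912 without). MEG3 itself read 9.28, 8.69 and 9.38 in 2102Ep and 6.96, 6.71 and 7.12 in NTera-2, a difference of -2.19 (adjusted p = 9.2e-09). The paternal genes DLK1 (-0.60), RTL1 (-0.06) and DIO3 (-0.24) were not called. Of 16 microRNA precursors in the same interval 0 passed the threshold by limma, with differences from -0.543 to 0.314. The 6 small nucleolar RNAs are of similar sequence, and whether their probe sets share signal was not tested.

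Small nucleolar RNAs as a class were called on the same side. Of 192 measured in all, 24 were higher in 2102Ep and 0 were higher in NTera-2 (12.5% called, against 7.77% of all genes), with a median of -0.326. Besides those of chromosome 14 they included the H/ACA guides SNORA20 (-2.09), SNORA71A (-1.69) and SNORA71C (-1.53), which direct pseudouridylation of ribosomal RNA. The median signal over the 192 was 8.546, 9.092 and 8.726 in the 2102Ep control arrays and 8.433, 8.43 and 8.329 in the NTera-2 control arrays, so that 2102Ep control replicate 2 stood above the others. Without it 15 were higher in 2102Ep and 2 in NTera-2, and the median was -0.238. In the siSOX2 arrays 12 of the 192 were higher in 2102Ep and 3 in NTera-2, and 12 of the 24 were called the same way. The recovery of small RNAs in each sample was not tested.

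The Wnt pathway guides stem cell renewal and the first cell fates of the embryo. Of 35 Wnt feedback genes and targets 7 were higher in NTera-2 and 2 were higher in 2102Ep, so that 25.7% were called, against 7.77% of all genes, of whose calls 57.8% were also higher in NTera-2. In the siSOX2 arrays the counts for this list were 6 and 8. Of 42 Wnt ligands and receptors 5 were higher in NTera-2 and 1 in 2102Ep in the control arrays (14.3% called), and 2 and 5 in the siSOX2 arrays. Several of those higher in NTera-2 encode inhibitors. SFRP1, a secreted protein that binds Wnt ligands, read 11.09, 10.91 and 11.21 in NTera-2 and 7.74, 7.51 and 7.95 in 2102Ep, a difference of 3.34 (adjusted p = 6.25e-12). SHISA3 (2.61), which retains Frizzled receptors inside the cell, FRZB (1.84) and SFRP2 went the same way, as did the transcription factor LEF1 (1.52). RNF43 (-1.26), a ubiquitin ligase that removes Frizzled receptors, was higher in 2102Ep, and AXIN2, a feedback inhibitor often used to read the pathway, stood at -0.67. Nodal and activin signalling sustains the pluripotent state in human cells. NODAL itself read 8.98, 9.60 and 9.30 in 2102Ep and 6.52, 6.37 and 6.76 in NTera-2, a difference of -2.74. Its antagonist CER1 (-2.13), FOXH1, a nuclear partner of its SMAD effectors (-1.10), and the distantly related ligand GDF15 (-3.19) were also higher in 2102Ep. The activin antagonist FST (1.76), the follistatin-like protein FSTL1 (1.49) and the receptor ACVR2A (1.36) were higher in NTera-2. The list of 34 genes held 3 calls for NTera-2 and 4 for 2102Ep (20.6% called), and the latter became 7 without 2102Ep control replicate 2. Of 13 Hedgehog genes, with a median of 0.357, 1 was called, or 2 without 2102Ep control replicate 1 or without NTera-2 control replicate 2. That share of 7.69% is close to the 7.77% of all genes. The called gene was the transcription factor GLI3, at 10.41, 10.63 and 10.55 in NTera-2 and 8.12, 7.33 and 7.74 in 2102Ep. The VEGF receptor FLT1 (2.96), the heparin-binding growth factor PTN (1.91) and IGFBP2 (1.45) were higher in NTera-2, and LIF, the cytokine that supports naive cells in the mouse, was higher in 2102Ep (-1.05, and -0.96 without 2102Ep control replicate 1 and -0.999 without NTera-2 control replicate 2).

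Retinoic acid genes were of interest because the lines differ in their answer to retinoic acid. Of 29 measured genes 5 were higher in NTera-2 and 0 were higher in 2102Ep (17.2% called, against 7.77% of all genes). The list median was -0.0101, lay between -0.0605 and 0.0512 when single control arrays were left out and was 0.0678 after repeated quantile normalisation. RARRES2, named for its induction by retinoids and also known as chemerin, read 10.74, 10.41 and 10.56 in NTera-2 and 8.06, 8.11 and 8.16 in 2102Ep, a difference of 2.46 (adjusted p = 1.35e-10). NR6A1, an orphan receptor that represses pluripotency genes during differentiation, differed by 1.88, and LRAT, which stores retinol as esters, by 1.33. The receptor RARG (1.15) and the retinoic acid hydroxylase CYP26A1 (1.002) lay just above the threshold. RARG was at 0.96 without 2102Ep control replicate 2, and CYP26A1 at 0.848 to 0.989 without 2102Ep control replicate 1 or NTera-2 control replicate 1 or 3. The other receptors did not reach 2-fold, among them RARB (-0.57) and RXRA (0.44), and the retinoic acid binding protein CRABP2 stood at 0.93, or 1.01 and called without 2102Ep control replicate 2.

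Genes of neural development as a group did not lean to either line, although the 2-fold calls did. Of 72 neural ectoderm genes 9 were higher in NTera-2 and 2 were higher in 2102Ep (15.3% called, against 7.77% of all genes). A lower mean in NTera-2 was found for 42, and the calls without a fold threshold were 17 and 16. The list median was -0.0772 and the mean 0.127, and the median was -0.00898 without 2102Ep control replicate 3 and -0.014 without NTera-2 control replicate 2. MAP2, a microtubule-associated protein of dendrites, read 8.51, 8.17 and 8.68 in NTera-2 and 5.75, 5.16 and 5.39 in 2102Ep. That difference of 3.02 (adjusted p = 1.76e-10) was followed by the homeodomain factor LHX2 (2.39), OTX2, PTPRZ1 and the growth cone protein GAP43 (1.75). GAD2, which makes GABA, and the adhesion protein CNTN1 were higher in 2102Ep, at -1.37 and -1.24. The neural plate factors PAX6 (-0.08) and SOX1 (-0.12) were not called. Of 76 axon guidance genes (18.4% called) 11 were higher in NTera-2 and 3 were higher in 2102Ep, with SLITRK5 (1.84), the receptor NRP2 (1.78) and the semaphorins SEMA5B (1.53) and SEMA3A (1.47) among the former. The latter were 1 without 2102Ep control replicate 1. In the primitive streak list of 45 genes, WNT3 read 10.32, 10.02 and 9.99 in 2102Ep and 7.78, 7.55 and 7.92 in NTera-2, while TBXT (-0.20), EOMES (-0.51) and MIXL1 (-0.41) were not called.

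Genes of DNA methylation and chromatin were divided, with 5 of 51 higher in each line (19.6% called, against 7.77% of all genes). Without the genes below the median signal 4 were higher in NTera-2 and 2 in 2102Ep. CHD7, a chromatin remodeller, was among the largest differences in favour of NTera-2, at 10.34, 10.37 and 10.51 against 6.94, 6.42 and 6.67 in 2102Ep. EZH2, the methyltransferase of Polycomb complex PRC2, differed by 1.73 (SE 0.143, adjusted p = 4.76e-08), and the histone variants MACROH2A2 (1.92) and MACROH2A1 (1.49) and the 5-methylcytosine oxidase TET2 (1.58) were higher in NTera-2 too. Next to DNMT3L, the cytidine deaminases APOBEC3G (-1.73) and APOBEC3B (-1.36) were higher in 2102Ep. Of 44 glycolysis and hypoxia genes (20.5% called) 7 were higher in 2102Ep, among them carbonic anhydrase 2 (CA2, -2.35), the mitophagy receptor BNIP3 (-2.19) and the hypoxia-inducible factor EPAS1 (-1.74). In NTera-2 2 were higher, or 1 without 2102Ep control replicate 3 or NTera-2 control replicate 2. Of 59 cell cycle genes 3 were called at 2-fold (5.08% against 7.77% of all genes), but 46 had a higher mean in NTera-2 and the list median was 0.371. Without a fold threshold 32 were higher in NTera-2 and 8 in 2102Ep. At 2-fold the number higher in NTera-2 was 2, or 4 without 2102Ep control replicate 1 and 1 without NTera-2 control replicate 3. RB1, the retinoblastoma tumour suppressor on chromosome 13, read 9.05, 9.42 and 9.32 in NTera-2 and 7.73, 7.33 and 6.77 in 2102Ep, cyclin A1 (CCNA1) differed by -1.66, and CENPF by 1.004, which was 0.737 without 2102Ep control replicate 2 and 0.981 without NTera-2 control replicate 3.

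Outside the lists, OCIAD2, a mitochondrial and endosomal membrane protein, read 10.03, 10.17 and 9.93 in NTera-2 and 5.88, 6.13 and 5.90 in 2102Ep. PCLAF, a partner of the replication clamp, differed by 4.45 on the probe set used and by 2.25 on its other one. The neuronal scaffold NBEA (3.21), the interferon-inducible GTPase MX2 (3.19) and the G protein subunit GNG4 (3.17) were further genes at 8-fold or more above 2102Ep. Plastin LCP1, an actin-bundling protein best known from leukocytes, read 11.33, 11.29 and 10.74 in 2102Ep and 6.43, 6.25 and 6.02 in NTera-2, a difference of -4.88 (SE 0.15). The mitochondrial chaperone DNAJC15 (-4.65), ERVH48-1, an envelope-derived gene of an endogenous retrovirus (-4.30), the matrix link protein HAPLN1 (-4.16) and the signalling regulator RGS4 (-4.01) were at 16-fold or more above NTera-2.

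**Figure D4:**
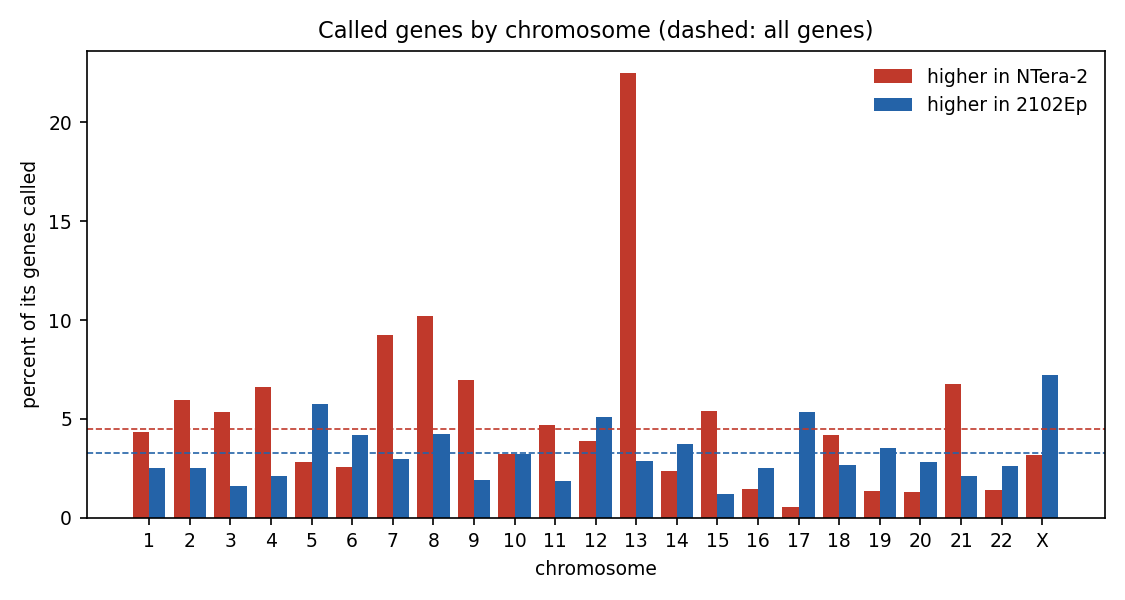
Percent of the measured genes of each chromosome that were called higher in NTera-2 (red bars) or higher in 2102Ep (blue bars), with dashed lines at the percent of all genes in each direction and chromosome Y not drawn. Chromosome 13 stood at 22.5% for NTera-2 and chromosome 17 at 0.562%.

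The share of called genes varied between chromosomes. On chromosome 13, 71 of 316 genes were higher in NTera-2, or 22.5% against 4.49% of all genes, and 9 were higher in 2102Ep. The median difference of all genes of that chromosome was 0.269. Chromosome 8 held 65 genes higher in NTera-2 of 639 (10.2%) and chromosome 7 held 77 of 834 (9.23%). On chromosome 17 only 6 of 1067 genes were higher in NTera-2 while 57 were higher in 2102Ep, with a median of -0.249, and on chromosome X 50 of 694 genes (7.2%) were higher in 2102Ep. Some called genes were neighbours. Runs of at least 4 called genes of 1 direction, with at most 1 other measured gene between successive members, numbered 18. Chromosome 13 held 6 of them, all higher in NTera-2, and 1 of them consisted of MED4, RB1, RCBTB2 and FNDC3A. Chromosome 8 held 4 runs higher in NTera-2, such as that of MICU3, ZDHHC2, CNOT7, VPS37A, MTMR7 and SLC7A2, all 6 of which were called the same way in the siSOX2 arrays, and 1 run higher in 2102Ep with the calcium-binding proteins CALB1 (-3.36) and NECAB1 (-2.60). In siSOX2 arrays the median of chromosome 13 was 0.357 and that of chromosome 17 was -0.233. DNA copy number was not measured, and its part in these counts was not tested.

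The line difference was measured again in the siSOX2 arrays, which share no array with the controls. SOX2 itself read 9.17, 9.30 and 8.80 in the 2102Ep siSOX2 arrays and 11.92, 11.95 and 11.86 in the NTera-2 siSOX2 arrays. Its line difference was thus 2.82 with siSOX2 against 0.33 with the control siRNA (adjusted p = 4.87e-08 for the change). These are RNA signals, and the paper reports that its Western blot detected no SOX2 protein in either line after siSOX2. The part of the unequal RNA level in the results with siSOX2 was not tested. With siSOX2 1407 genes were called, or 7.65%, and 905 genes were called the same way in both conditions. These 905 were 63.3% of the genes called in the control arrays and 64.3% of those called in the siSOX2 arrays. Of the genes higher in NTera-2 controls 570 of 826 (69%) were called the same way, and of those higher in 2102Ep controls 335 of 603 (55.6%). The opposite call was found for 2 genes of the first group and 0 of the second. NRP1 was at 1.11 in the control arrays and -1.38 in the siSOX2 arrays, and carbonic anhydrase 12 (CA12) was at 1.07 and -1.25. Genes with a large difference in both conditions included PIWIL2 (4.44 with siSOX2), TDRD12 (4.57), SFRP1 (3.27), CLDN7 (-5.02), LCP1 (-4.89), GTSF1 (-4.54), ZFP42 (-3.85) and SNORD114-3 (-5.25).

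A change of the line difference between the siRNAs was tested as an interaction, and 305 genes, or 1.66% of all, were called. Among genes called in the control arrays this was so for 69 of the 826 and 80 of the 603. The same control arrays enter the choice of these genes and the interaction, so the direction of the change is in part fixed by the choice. Of the 13 called mesenchymal genes 9 had a changed difference and 4 were called the same way with siSOX2, namely ZEB1, ZEB2, VIM and VCAN. Over all 49 genes of the list, 6 were higher in NTera-2 and 7 in 2102Ep with siSOX2. The list medians were 9.191, 9.254 and 9.087 in the 2102Ep siSOX2 arrays and 8.757, 8.759 and 8.801 in the NTera-2 siSOX2 arrays, so that every 2102Ep array lay above every NTera-2 array. WNT5A read 6.46, 6.06 and 6.49 in 2102Ep controls and 9.47, 9.45 and 9.52 in 2102Ep siSOX2 cells, and 8.37, 8.40 and 8.45 and 8.84, 8.76 and 8.86 in the matching NTera-2 groups. Its line difference was thus 2.07 with the control siRNA and -0.66 with siSOX2 (adjusted p = 1.62e-08 for the change). Of the 18 called epithelial genes 16 were called the same way with siSOX2 and 2 had a changed difference, CLDN4 (-1.08) and GRHL2 (-1.23). Of the 13 naive genes 9 were called the same way. DPPA5 read 7.89, 7.91 and 7.99 in 2102Ep with siSOX2, against 5.88, 5.96 and 6.08 in NTera-2, so that its difference was -1.96 in place of -4.87, and TBX3 went from -1.25 to -3.61. Of the 12 primed genes 8 were called the same way. Of 45 primitive streak genes 1 was higher in NTera-2 controls and 4 in 2102Ep controls (11.1% called, against 7.77% of all genes). With siSOX2 the counts for that list were 0 and 17, and those for all 18401 genes were 849 and 558. The largest changes among all called genes were those of RHOBTB3 (3.23 and 0.14), USP3 (3.43 and 0.66), DPPA5, DUSP6 (2.20 and -0.55), WNT5A and the proton pump ATP12A (-1.21 and -3.94).

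**Figure D5:**
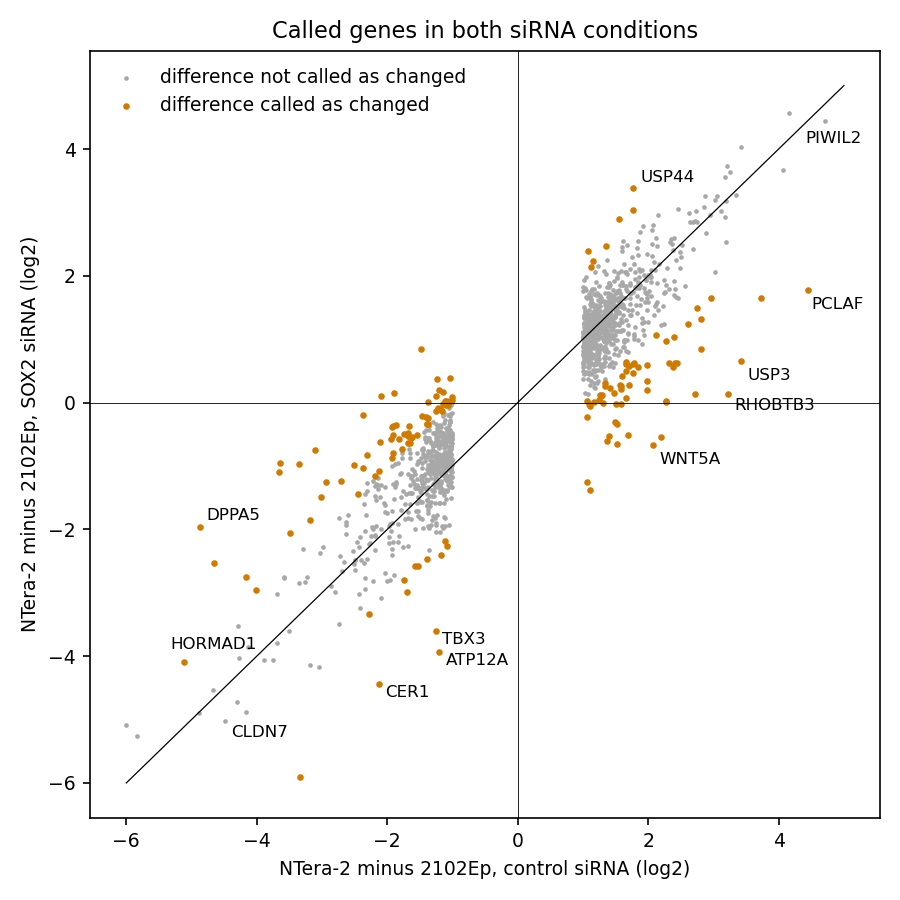
Difference between the lines (NTera-2 minus 2102Ep, log2) in siSOX2 arrays against that in control arrays for the genes called in the control arrays, 1 point per gene, with genes whose difference was called as changed in orange, the line of equal values and Y-linked genes not drawn. PIWIL2 lies near the line at 4.71 and 4.44, whereas WNT5A lies at 2.07 and -0.66.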

How the data were processed

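Total RNA of 12 samples was hybridised to Affymetrix Human Gene 1.0 ST arrays. The deposited values are log2 signals that the authors obtained by RMA in the manufacturer's software (version not stated). That the logarithm is to base 2 was inferred from the range of the values, 1.57 to 14.98. The submitters' processing notes also list limma. Of 32321 probe sets, 19158 carry 1 gene, 1388 several and 11775 none in the platform annotation. Each of 18401 genes was represented by its probe set with the highest mean over the 12 arrays, and 18378 matched RefSeq (GRCh38.p14). Group means were fitted to the 12 arrays with limma 3.58.1 in R 4.3.3, and the spread was shared by all groups (8 residual and 8.82 prior degrees of freedom). The contrast was NTera-2 control minus 2102Ep control, and a call required an adjusted p of at most 0.05, a p of at most 0.01 and a difference of at least 1 on the log2 scale. Differences carry limma's standard error, whose median was 0.121, and n is 3 arrays per group throughout. An exact permutation test of 3 against 3 arrays cannot go below 0.1 and was not used. On simulated data with 100 genes changed by 1.5 and 100 by 3 on the log2 scale, 100% of each were called, with 0 false calls. Both changes lie above the threshold and the noise was independent between genes. The run therefore checks the procedure only and cannot tell how calls near 2-fold behave. The genes and lists were chosen with earlier results of these data known. Genes were named for the size of their difference, for membership of 1 of 56 gene lists or as part of a run of neighbouring called genes, and some not called were added for comparison. The genes of the imprinted chromosome 14 locus were grouped after their values were seen. Alternatives were centring, repeated quantile normalisation, a replicate block, the 6 control arrays alone, other thresholds, a signal filter, an intensity trend with a robust prior, probe set means and leaving out each control array. No scan date or batch label was found. The number of arrays limits the precision.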

Additional observations from a re-analysis of the deposited data

Results flagged for a closer look

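Of 194 genes given with values, 47 had a line difference that differed between the control siRNA and siSOX2 by the interaction test in limma. Each value here is the difference NTera-2 minus 2102Ep in the siSOX2 arrays less that in the control arrays, on the log2 scale, so that a negative value means that NTera-2 was lower relative to 2102Ep with siSOX2. The control arrays enter both the line difference and its change. Mesenchymal genes with a negative value were WNT5A (-2.73), NRP1 (-2.48), CDH11 (-2.25), CDH2 (-1.97), TNC (-1.86), CDH6 (-1.82), FN1 (-1.65), SNAI1 (-1.30), ITGA5 (-1.16) and SNAI2 (-1.15). Genes of the primitive streak and early embryo with a negative value were TBXT (-2.58), TBX3 (-2.36), CER1 (-2.31) and MIXL1 (-2.25). Signalling genes and receptors on the same side were DUSP6 (-2.75), LEF1 (-2.17), GLI3 (-1.49), SHISA3 (-1.37), FZD2 (-1.32), FLT1 (-1.31), CRABP2 (-1.18), SFRP2 (-1.17) and NRP2 (-1.15). The remaining negative values were those of RHOBTB3 (-3.09), USP3 (-2.77), ATP12A (-2.73), PCLAF (-2.66), CA12 (-2.31), CHD7 (-2.09), MACROH2A1 (-1.79), GRHL2 (-1.23), CLDN4 (-1.08) and EPAS1 (-1.06). On the positive side SOX2, the target of the siRNA, stood at 2.49, with the siSOX2 arrays at 9.17, 9.30 and 8.80 in 2102Ep and 11.92, 11.95 and 11.86 in NTera-2. The RNA level of the target thus differed between the lines after siSOX2, while the paper's Western blot detected no SOX2 protein in either line. The other positive values were those of DPPA5 (2.91), CALB1 (2.39), DNAJC15 (2.13), CNTN1 (1.61), USP44 (1.60), MIR31HG (1.53), FST (1.29), GAD2 (1.12), TFAP2C (1.06), RGS4 (1.05), BNIP3 (1.04), HORMAD1 (1.03) and MIR31 (1.03).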

How the results depend on the processing

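No call of a named gene turned direction under any alternative run. Without a fold threshold 7809 genes were called, 3857 higher in NTera-2 and 3952 higher in 2102Ep, and at 4-fold there were 211, 98 and 113. Without the genes below the median signal, which left fewer genes to test, the counts were 866, 547 and 319, with 544 called the same way in the siSOX2 arrays and 166 with a changed difference. In that setting 7 naive genes and 1 protocadherin were higher in 2102Ep. Leaving out each control array in turn gave 1388 to 1520 called genes, 752 to 931 higher in NTera-2 and 589 to 649 higher in 2102Ep. With the replicate block the counts were 1429, 826 and 603, with 905 called the same way and 307 changed. The deviations of same-numbered control arrays of different lines correlated at -0.317, 0.268 and -0.084. Those of differently numbered arrays correlated at -0.417 to 0.459. With 3 arrays per group these values cannot tell whether the lines were paired. Whether control and siSOX2 arrays of the same number were paired inside a line was not examined. The block fits an effect of the replicate number that both lines share, so it does not settle that, and it changed no call count by 1.5 times. Centring gave 1437 calls, of which 849 were higher in NTera-2, and repeated quantile normalisation gave 1409, of which 801 were. The 6 control arrays alone gave 1428, the intensity trend with a robust prior 1427 and probe set means 1410. Without 2102Ep control replicate 2 the surface antigens higher in NTera-2 went from 4 to 2. The change of the line difference was recomputed under the block, centring, quantile and signal settings as an addition made after seeing the data. Of the called genes 875 had a mean below the median gene signal in the lower line, and 103 below the 10th percentile, where an array measures differences less well.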
